A study of Mus musculus with 11 samples.

Results

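Transcripts of mast cells and of the Mas-related receptor gene Mrgprb1 ran in opposite directions across the skin tumours of a mouse melanoma model. The 9 genes described are Mrgprb1, Mrgprb2, Cpa3, Cma1, Mcpt4, Tpsb2, Ms4a2, Fcer1a and Hdc, taken by symbol from 18756 mouse genes counted by RNA sequencing. They were chosen from their levels in these same libraries, so those levels are given as a description, without p-values. The SE and the calls given for them come from a fit to these same libraries and are not support for a difference. The tumours were taken from C57BL/6 mice at end point, and each library is labelled as 1 skin tumour. Of the 11 tumours, 2 carried GNA11 Q209L alone, 5 were of genotype GNA11 Q209L Bap1 KO, and the other 4 of genotype BRAF V600E Bap1 KO. GNA11 Q209L is an activating change of a G protein alpha subunit, BRAF V600E an activating change of a kinase, and Bap1 a deubiquitinase and tumour suppressor. A header line of the deposited table gives BAP1 F/F for both Bap1 KO genotypes and WT for GNA11 Q209L. The promoter that drives the oncogenes, the cell type in which Bap1 was removed, and the age and sex of the mice are not stated in the labels or headers.

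Mast cells are tissue-resident granulocytes of the skin that store histamine and proteases bound to the proteoglycan serglycin. Allergen bound to IgE crosslinks the high-affinity IgE receptor and empties the granules, and lipid mediators are then made at the membrane. Skin mast cells of the connective tissue type hold chymases, tryptases and carboxypeptidase, while mucosal mast cells carry another pair of chymases, Mcpt1 and Mcpt2. The Mas-related receptors are a family of G protein-coupled receptors that has expanded in rodents, best known from itch-sensing neurons. Mrgprb2 is the member by which mouse connective tissue mast cells answer basic peptides and drugs without IgE, the role held in humans by MRGPRX2. Mast cell survival needs the receptor Kit and its ligand, and Kit and the transcription factor Mitf also serve melanocytes.

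Mrgprb1 is one of a row of receptor genes on chromosome 7. In the RefSeq order of coding genes it lies between Mrgprb8 and the gene with the symbol Mrgprx2, which is followed by Mrgprb2 and Mrgprb3. The promoter sequences of Mrgprb1, Mrgprx2 and Mrgprb2 are shown because these neighbours differ in how they moved with genotype. Each is the stretch of 250 bases that ends at the annotated start, from RefSeq on GRCm38.p6, read 5′ to 3′ on the minus strand, with the motif TGACTCA (the AP-1 motif) in capitals. The stretches are chr7:48456343-48456592, chr7:48499271-48499520 and chr7:48558087-48558336.
Mrgprb1: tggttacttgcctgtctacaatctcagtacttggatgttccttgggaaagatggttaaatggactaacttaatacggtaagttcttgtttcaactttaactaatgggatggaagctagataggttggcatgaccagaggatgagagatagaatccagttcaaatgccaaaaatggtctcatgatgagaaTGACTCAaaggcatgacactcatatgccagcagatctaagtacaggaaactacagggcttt
Mrgprx2: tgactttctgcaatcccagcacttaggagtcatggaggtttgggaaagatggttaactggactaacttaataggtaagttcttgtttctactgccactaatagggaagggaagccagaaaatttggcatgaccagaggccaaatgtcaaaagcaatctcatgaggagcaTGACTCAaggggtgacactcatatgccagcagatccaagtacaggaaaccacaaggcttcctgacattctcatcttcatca
Mrgprb2: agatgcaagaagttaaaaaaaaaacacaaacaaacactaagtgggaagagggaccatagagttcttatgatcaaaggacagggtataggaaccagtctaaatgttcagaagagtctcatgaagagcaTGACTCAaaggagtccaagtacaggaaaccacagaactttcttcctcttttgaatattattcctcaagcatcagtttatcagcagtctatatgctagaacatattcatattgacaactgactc

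Over the aligned bases the Mrgprb1 promoter was 85.8% identical to that of Mrgprx2 (218 bases) and 70.6% to that of Mrgprb2 (163 bases). All 3 hold TGACTCA, which was found on either strand in 4.46% of 32851 RefSeq promoters of this length. The Mrgprb1 and Mrgprx2 stretches hold no GATAA, and Mrgprb2 has 1 match on the other strand. For contrast, the promoters of the carboxypeptidase gene Cpa3 (chr3:20242182-20242431) and the chymase gene Mcpt4 (chr14:56062311-56062560) are shown from the same build and strand, with GATAA, the motif of GATA factors, in capitals.
Cpa3: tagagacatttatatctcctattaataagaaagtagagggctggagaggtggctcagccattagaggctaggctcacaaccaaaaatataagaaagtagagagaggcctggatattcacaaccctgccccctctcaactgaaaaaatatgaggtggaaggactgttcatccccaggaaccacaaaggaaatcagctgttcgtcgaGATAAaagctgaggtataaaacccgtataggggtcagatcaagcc
Mcpt4: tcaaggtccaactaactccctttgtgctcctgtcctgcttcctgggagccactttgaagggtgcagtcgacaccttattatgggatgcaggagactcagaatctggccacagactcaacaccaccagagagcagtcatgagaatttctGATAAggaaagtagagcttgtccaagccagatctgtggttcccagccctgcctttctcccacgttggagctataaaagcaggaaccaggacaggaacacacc

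A promoter could be matched for 8 of the 9 genes, Tpsb2 being the exception. GATAA on either strand was found in 6 of the 8 (Mrgprb2, Cpa3, Cma1, Mcpt4, Ms4a2 and Fcer1a) and in 22.6% of all promoters. The E-box CATGTG was found in Fcer1a alone of the 8, against 12.3% of all promoters, and CACGTG in 0 of 8, against 6.02%. Each motif was searched on both strands, and none of the 4 contains another. A match is a stretch of letters and not a site of binding.

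Related genes can share reads, and the labels do not say how a read with several matches was counted. Between reading frames the identity was 85.1% for Mrgprb1 and Mrgprx2, 73.7% for Mrgprb1 and Mrgprb2, 77.0% for the tryptase genes Tpsb2 and Tpsab1, and 87.0% for the chymase genes Mcpt1 and Mcpt4. No stretch of 50 bases was found in the GENCODE transcripts of both genes of any of these pairs. The levels of family members are uncertain to the extent that shorter or mismatched reads were assigned to the wrong copy.

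Total counts ran from 18338082 to 81035135 per library, the highest in BRAF V600E Bap1 KO replicate 1. The gene count of Bap1 ran from 85.1 to 137 counts per 1000000 (CPM, scaled by TMM) in GNA11 Q209L and from 102 to 170.1 CPM with Bap1 KO beside it. In the BRAF V600E Bap1 KO libraries it ran from 54.7 to 71.3 CPM. The Bap1 count therefore does not separate the Bap1 KO label from GNA11 Q209L, and the labels do not name the exons removed. GNA11 Q209L Bap1 KO replicates 1 and 2 share an identifier in their titles. The Bap1 header line is repeated at the end of the table, where 2 libraries of BRAF V600E Bap1 KO (replicates 2 and 4) read NA. Nothing in the labels says that libraries of a genotype come from separate mice, so p-values measure the spread between these libraries. With fewer mast cells or with less RNA of a gene in each cell a bulk tumour gives the same count, and the 2 cannot be told apart.

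Mrgprb1 (ENSMUSG00000070547), a Mas-related receptor gene, was abundant in every tumour with GNA11 Q209L and low in every tumour with BRAF V600E. It stood at 170.1 and 772 CPM in GNA11 Q209L. It stood at 998, 538, 828.9, 1087 and 1429.6 CPM in GNA11 Q209L Bap1 KO. In the BRAF V600E Bap1 KO libraries it stood at 14.7, 2.73, 5.95 and 5.60 CPM. The lowest library with GNA11 Q209L was thus far above the highest with BRAF V600E, while both GNA11 genotypes overlapped, since GNA11 Q209L replicate 2 lay within the range of GNA11 Q209L Bap1 KO. The mean of GNA11 Q209L Bap1 KO (976 ± 329 CPM, SD, n = 5) was 135-fold that of BRAF V600E Bap1 KO (7.24 ± 5.16, SD, n = 4), or 7.07 ± 0.73 (SE) as a log2 fold change. This value was 7.68 without BRAF V600E Bap1 KO replicate 1. The mean of GNA11 Q209L (471 ± 426, SD, n = 2) was 65.1-fold higher than in BRAF V600E Bap1 KO, at a log2 of 6.02 ± 0.74, with 6.73 and 4.55 without its replicate 1 and 2. In order, the means ran from GNA11 Q209L Bap1 KO through GNA11 Q209L to BRAF V600E Bap1 KO, and the first pair did not differ beyond their spread.

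Mrgprb2 (ENSMUSG00000050425), the mast cell receptor of the same cluster, ran the other way and at few counts. It was at 0.105 and 0 CPM in GNA11 Q209L and at 0.271, 0.0553, 0.379, 0.190 and 0.311 CPM in GNA11 Q209L Bap1 KO. In the BRAF V600E Bap1 KO libraries it was at 2.05, 0.511, 2.30 and 4.98 CPM, above every library with GNA11 Q209L. The raw counts were 4 in all of GNA11 Q209L, 35 in GNA11 Q209L Bap1 KO and 377 in BRAF V600E Bap1 KO. The BRAF V600E Bap1 KO mean was 10.2-fold that of GNA11 Q209L Bap1 KO, a log2 fold change of -3.31 ± 0.80 for GNA11 Q209L Bap1 KO, and -2.72 without BRAF V600E Bap1 KO replicate 4. Between Mrgprb1 and Mrgprb2, 2 receptors of 1 gene cluster, the direction between the oncogenes was opposite. Both promoters hold the TGACTCA shown above, and any part of this motif in the levels was not tested.

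The 4 granule protease genes were present in all BRAF V600E Bap1 KO tumours and nearly absent from tumours with GNA11 Q209L. Cpa3 (ENSMUSG00000001865), the mast cell carboxypeptidase, stood at 72.8, 12.6, 13.4 and 27.5 CPM in the BRAF V600E Bap1 KO libraries. It stood at 0.523 and 0.0892 CPM in GNA11 Q209L and at 0.380, 0.387, 0.162, 0.952 and 0.259 CPM in GNA11 Q209L Bap1 KO. Replicate 1 was the highest of BRAF V600E Bap1 KO, and no library with GNA11 Q209L reached 1 CPM. Against GNA11 Q209L Bap1 KO the mean was 73.7-fold higher, a log2 fold change of -6.20 ± 0.80 for GNA11 Q209L Bap1 KO, and against GNA11 Q209L it was 103-fold higher.

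Cma1 (ENSMUSG00000022225), the chymase of connective tissue mast cells, stood at 64.4, 15.9, 16.1 and 19.1 CPM in the BRAF V600E Bap1 KO libraries. It stood at 0.0785 and 0.0892 CPM in GNA11 Q209L and at 0.0543, 0.166, 0.108, 0.143 and 0 CPM in GNA11 Q209L Bap1 KO, where all 5 libraries together held 9 counts. Again replicate 1 of BRAF V600E Bap1 KO stood alone and the groups were far apart. The mean was 306-fold higher than in GNA11 Q209L Bap1 KO (log2 -8.36 ± 0.91 for the latter) and 344-fold higher than in GNA11 Q209L.

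Mcpt4 (ENSMUSG00000061068), a second chymase of the same cells, stood at 72.4, 15.4, 13.6 and 29.6 CPM in the BRAF V600E Bap1 KO libraries. It stood at 0.288 and 0 CPM in GNA11 Q209L and at 0.163, 0.221, 0.108, 0.286 and 0.0173 CPM in GNA11 Q209L Bap1 KO. The libraries with BRAF V600E fell in the same order as for Cpa3 except that replicates 2 and 3, close together, changed places. The mean was 206-fold higher than in GNA11 Q209L Bap1 KO (log2 -7.75 ± 1.00) and 228-fold higher than in GNA11 Q209L.

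Tpsb2 (ENSMUSG00000033825), a mast cell tryptase, stood at 89.3, 13.4, 24.2 and 15.6 CPM in the BRAF V600E Bap1 KO libraries. It stood at 0.576 and 0.134 CPM in GNA11 Q209L and at 0.0543, 0.276, 0.703, 0.190 and 0.0346 CPM in GNA11 Q209L Bap1 KO. Here replicate 3 came after replicate 1 among the BRAF V600E Bap1 KO libraries, and the groups did not overlap. The mean was 141-fold higher than in GNA11 Q209L Bap1 KO (log2 -7.20 ± 1.02) and 100.4-fold higher than in GNA11 Q209L. For the protease genes BRAF V600E Bap1 KO replicate 1 carried much of the size. Without it the log2 fold changes of GNA11 Q209L Bap1 KO against BRAF V600E Bap1 KO were -5.38 for Cpa3, -7.58 for Cma1, -6.99 for Mcpt4 and -6.18 for Tpsb2. Without GNA11 Q209L Bap1 KO replicate 3 that of Tpsb2 was -8.03. The values against GNA11 Q209L rest on few counts, and without its replicate 1 and 2 the log2 fold changes were -8.41 and -5.91 for Cpa3, -13.1 and -6.82 for Mcpt4, and -8.02 and -5.95 for Tpsb2.

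The alpha and beta chain genes of the IgE receptor were read almost solely in BRAF V600E Bap1 KO, unlike the shared gamma chain gene described below. Fcer1a (ENSMUSG00000005339), the alpha chain that binds IgE, had 0 counts in all 7 libraries with GNA11 Q209L. In the BRAF V600E Bap1 KO libraries it stood at 21.7, 7.29, 2.09 and 1.27 CPM. Set against 3 counts over a group, which is 0.0224 CPM for GNA11 Q209L Bap1 KO and 0.0495 CPM for GNA11 Q209L, the mean of 8.08 ± 9.45 CPM (SD, n = 4) was at least 361-fold and at least 163-fold higher. Without BRAF V600E Bap1 KO replicate 1 the mean was 3.55 CPM, at least 158-fold higher than in GNA11 Q209L Bap1 KO. Replicates 1 and 2 were above replicates 3 and 4. Ms4a2 (ENSMUSG00000024680), the beta chain that amplifies the signal, stood at 3.55, 0.511, 2.65 and 2.27 CPM in the BRAF V600E Bap1 KO libraries. It had 4 counts in GNA11 Q209L replicate 1 and 0 in replicate 2, and 1 count in all 5 libraries of GNA11 Q209L Bap1 KO, in replicate 1. The ratio of the BRAF V600E Bap1 KO mean to that single count was 301, with an exact 95% Poisson interval from 53.9 to 11871 that covers counting error only. Its lowest library in BRAF V600E Bap1 KO was replicate 2, which was the second highest for Fcer1a.

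Hdc (ENSMUSG00000027360), the enzyme that makes histamine, was the least separated of the 9. It stood at 36.8, 19.6, 6.37 and 3.85 CPM in the BRAF V600E Bap1 KO libraries. It stood at 5.89 and 0.446 CPM in GNA11 Q209L and at 1.95, 0.829, 6.92, 0.286 and 0.311 CPM in GNA11 Q209L Bap1 KO. GNA11 Q209L Bap1 KO replicate 3 and GNA11 Q209L replicate 1 reached into the range of BRAF V600E Bap1 KO. The mean was 8.08-fold higher in BRAF V600E Bap1 KO than in GNA11 Q209L Bap1 KO (log2 -3.02 ± 1.11) and 5.26-fold higher than in GNA11 Q209L. The first value was -4.25 without GNA11 Q209L Bap1 KO replicate 3 and -2.28 without BRAF V600E Bap1 KO replicate 1. Against GNA11 Q209L it was -5.21 and -1.51 without GNA11 Q209L replicate 1 and 2.

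**Figure D1:**
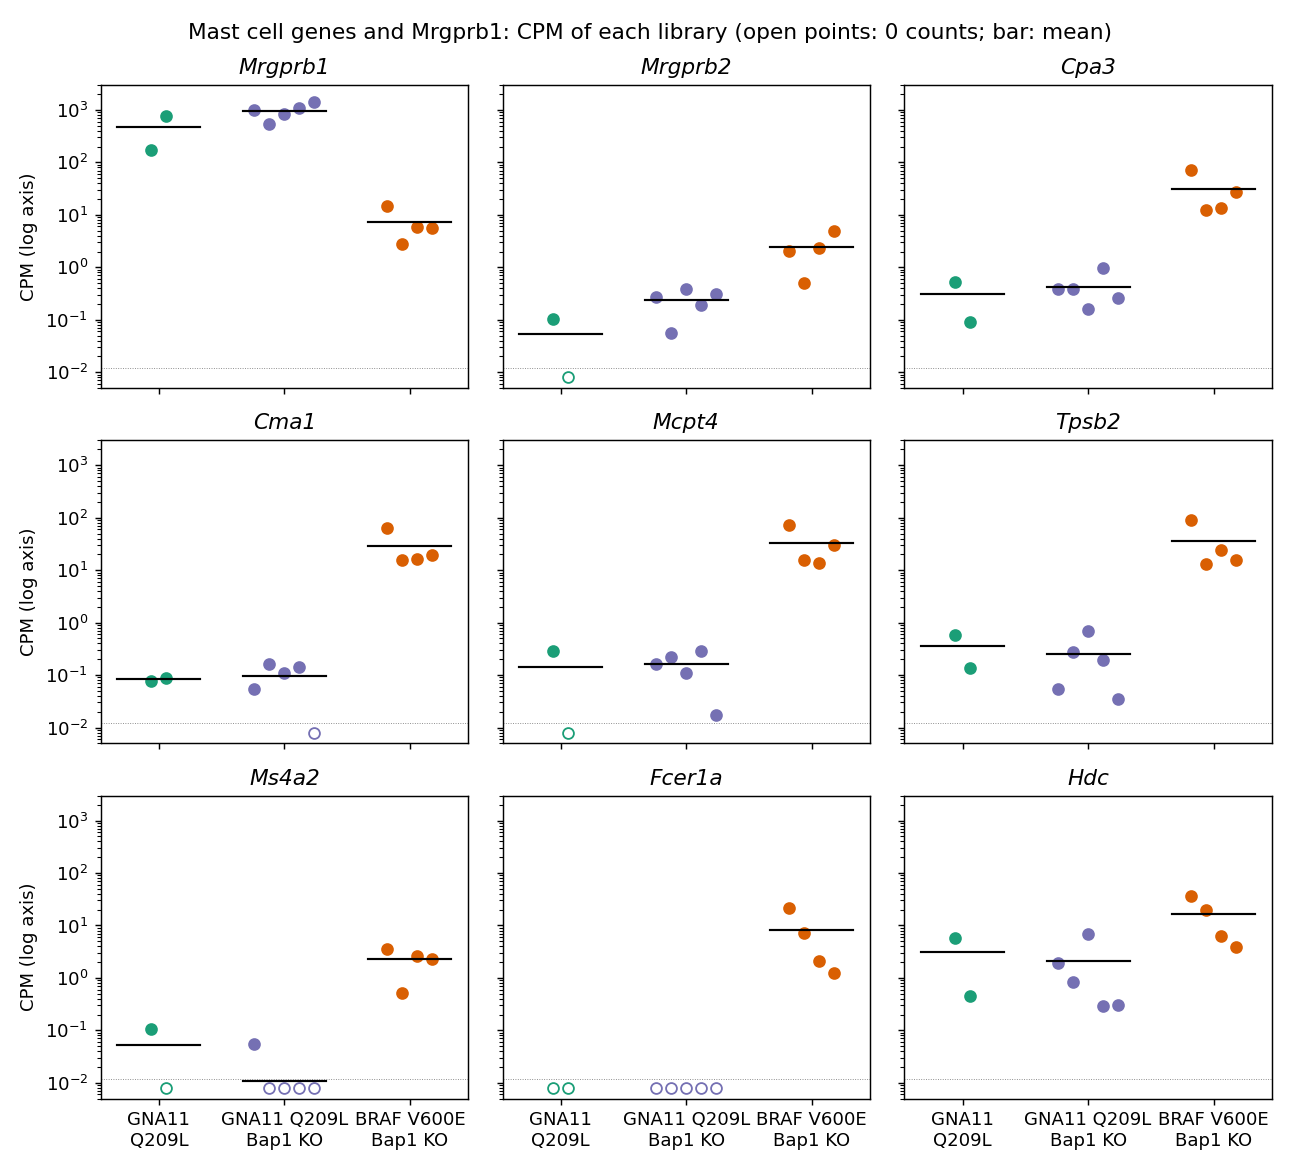
CPM on a log axis (vertical) of the 9 genes in each library, 1 panel per gene, grouped by genotype; points are libraries, bars are group means and open points below the dotted line had 0 counts. Mrgprb1 is at 170.1 CPM or more in all 7 libraries with GNA11 Q209L and at 14.7 or less with BRAF V600E, and the other genes have higher means with BRAF V600E.

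All 9 genes passed the low-count filter, and 5 (Mrgprb2, Cma1, Mcpt4, Ms4a2 and Fcer1a) passed it only through the BRAF V600E Bap1 KO libraries, in which they are high. For GNA11 Q209L Bap1 KO against BRAF V600E Bap1 KO, 1 of the 9 (Mrgprb1) was higher and 8 were lower at an adjusted p under 0.05 in edgeR's quasi-likelihood test, where 41.2% of the 17350 genes tested passed in either direction, 16.5% higher and 24.7% lower. The groups did not overlap for 8 of the 9, against 31.8% of all genes tested. Between GNA11 Q209L and BRAF V600E Bap1 KO, Mrgprb1 was higher and 7 were lower, with Hdc not passing, where 15.2% of all genes passed, 9.27% higher and 5.93% lower. Between the GNA11 genotypes, 0 of the 9 passed with edgeR, 0 were at an unadjusted p under 0.05 and 0 passed with DESeq2, where 0.0288% of all genes passed. Because these contrasts chose the genes, nothing is read from the counts. The first pair of comparisons shares the BRAF V600E Bap1 KO libraries.

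Within the BRAF V600E Bap1 KO tumours the mast cell genes did not all keep the same proportion to one another. Counts of each gene were divided by those of Cpa3 in the same library; gene lengths differ, so only the change between libraries is read. The ratio of Mcpt4 to Cpa3 was 0.995, 1.22, 1.02 and 1.08 in replicates 1 to 4, a range of 1.23-fold. The ratio of Cma1 was 0.884, 1.26, 1.203 and 0.696. These 2 chymases tracked Cpa3 closely across libraries whose Cpa3 levels differed several-fold.

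The other genes spread further. The ratio of Tpsb2 to Cpa3 was 1.23, 1.06, 1.81 and 0.569. The ratio of Hdc was 0.505, 1.55, 0.477 and 0.140, and that of Fcer1a 0.298, 0.577, 0.156 and 0.0462, both highest in replicate 2 and lowest in replicate 4. The ratio of Mrgprb2 went the other way, at 0.0281, 0.0404, 0.172 and 0.182. Fcer1a thus ranged 12.5-fold, Hdc 11.1-fold and Mrgprb2 6.46-fold, against 1.23-fold for Mcpt4. The mucosal chymase genes had their counts mostly in replicate 1 (847 of Mcpt1 and 540 of Mcpt2). Mcpt1 stood at 9.52, 0.954, 0 and 0 CPM, Mcpt2 at 6.07, 0.784, 0.104 and 0 CPM, and the basophil protease gene Mcpt8 at 0.730, 0.988, 0.0696 and 0.0437 CPM. All 3 were at 0 in the 7 libraries with GNA11 Q209L.

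**Figure D2:**
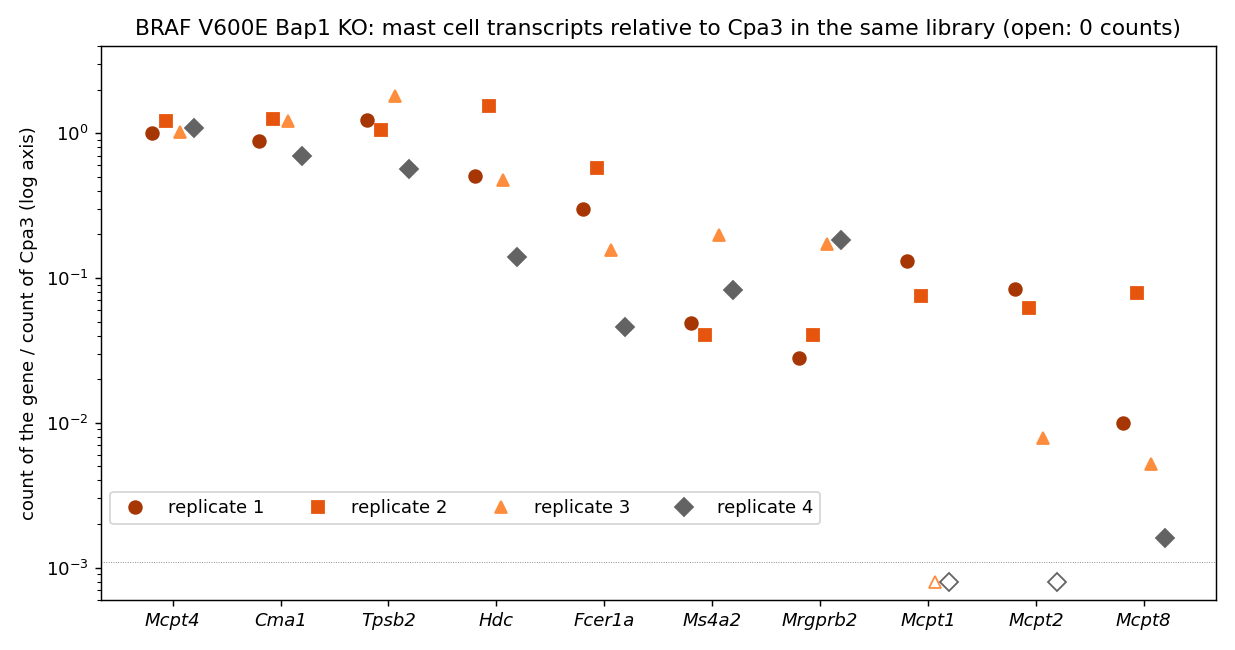
Count of each gene divided by the count of Cpa3 in the same library (vertical, log axis) in the 4 BRAF V600E Bap1 KO libraries, 1 symbol per replicate; open symbols below the dotted line had 0 counts. Mcpt4 keeps a ratio from 0.995 to 1.22, while Hdc and Fcer1a range from 0.140 to 1.55 and from 0.0462 to 0.577.

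Other genes of mast cell function were taken as a list of 25, of which 22 are in the table and 20 passed the low-count filter. The list is not limited to genes that mast cells alone express, and which cells gave the counts was not tested. It was drawn up with earlier results of these data known, and the libraries are shared. The test results of the listed genes are therefore not independent of the choice of the 9, although other genes are read. For GNA11 Q209L Bap1 KO against BRAF V600E Bap1 KO, 13 fell, 2 rose and 5 did not pass, where 24.7% of all genes tested were lower and 16.5% higher, with a median log2 fold change of -4.03 against -0.26 over all genes tested. In GNA11 Q209L against BRAF V600E Bap1 KO, 2 fell, 2 rose and 16 did not pass (median -1.86 against -0.23), a share close to the 15.2% of all genes that passed there. At an unadjusted p under 0.05 in edgeR were 10 of the 20, and 6331 of all 17350 genes tested. DESeq2 called 9 of the 20, and more of all genes than edgeR did. Between the GNA11 genotypes, 0 passed with edgeR and 0 with DESeq2, with 7 at an unadjusted p under 0.05. Adjusted p-values here and below are from edgeR's quasi-likelihood test with Benjamini-Hochberg adjustment over all genes tested. Of the 20, 6 (Tpsab1, Tpsg1, Mcpt1, Mcpt2, Tph1 and Adora3) passed the filter only through BRAF V600E Bap1 KO, where they are high, so their direction was fixed and they are described without a p-value. The counts and medians over the 20 include these 6, so nothing is read from the medians. Of the other 14, 8 fell and 2 rose in GNA11 Q209L Bap1 KO.

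Of the proteases, Tpsab1, the other tryptase, stood at 8.80, 0.818, 6.93 and 0.481 CPM in the BRAF V600E Bap1 KO libraries. It stood at 0.471 and 0 CPM in GNA11 Q209L and at 0, 0.111, 0.216, 0.0476 and 0 CPM in GNA11 Q209L Bap1 KO. Replicates 1 and 3 were high, and the groups did not overlap. It was lower in GNA11 Q209L Bap1 KO by a log2 of -5.91 ± 1.44 (SE), or -6.82 without GNA11 Q209L Bap1 KO replicate 3 and -5.28 without BRAF V600E Bap1 KO replicate 1. Tpsg1, a tryptase anchored in the membrane, had 3 counts in GNA11 Q209L Bap1 KO, and the mean with BRAF V600E was 25.4-fold that level (exact 95% Poisson interval from 8.70 to 123). The fitted log2 fold change was -5.30 without GNA11 Q209L Bap1 KO replicate 4. Ctsg, the cathepsin G gene, was below the filter and at 0.124, 4.50, 0.0348 and 0.0437 CPM in BRAF V600E Bap1 KO, where replicate 2 also had the most of the neutrophil genes S100a8 (107 CPM) and Mpo (8.76 CPM).

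Of the granule and amine genes, Srgn, the proteoglycan serglycin, stood at 86.0, 144, 37.1 and 29.0 CPM in the BRAF V600E Bap1 KO libraries. It stood at 7.87, 5.86, 11.8, 6.95 and 4.29 CPM in GNA11 Q209L Bap1 KO, well below (log2 -3.33 ± 0.61, adjusted p = 0.00311). The GNA11 Q209L libraries held 59.1 and 9.90 CPM, and their replicate 1 lay within the range of BRAF V600E Bap1 KO. Tph1, which makes serotonin in mast cells, was also lower in GNA11 Q209L Bap1 KO (log2 -4.38 ± 0.89, and -5.14 without GNA11 Q209L Bap1 KO replicate 3 or -3.76 without BRAF V600E Bap1 KO replicate 1). Slc18a2, the pump that loads amines into granules, was lower by -1.67 ± 0.56 (adjusted p = 0.0345). That call was lost without GNA11 Q209L Bap1 KO replicate 1, 2, 3 or 5 or BRAF V600E Bap1 KO replicate 1, 3 or 4, at adjusted p from 0.0527 to 0.0747. It was also lost with GNA11 Q209L Bap1 KO replicates 1 and 2, which share an identifier, summed (adjusted p = 0.0632). Ndst2, an enzyme of heparin synthesis that many cells express, did not pass (adjusted p = 0.865).

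Of the lipid mediator genes, Ptgs1, a cyclooxygenase, stood at 404, 175, 53.9 and 35.6 CPM in the BRAF V600E Bap1 KO libraries. It stood at 11.3 and 1.34 CPM in GNA11 Q209L and at 3.15, 1.49, 3.57, 2.57 and 1.21 CPM in GNA11 Q209L Bap1 KO. Every library with GNA11 Q209L was below every library with BRAF V600E. The log2 fold change was -6.13 ± 0.89 in GNA11 Q209L Bap1 KO (adjusted p = 0.00106, and -5.21 without BRAF V600E Bap1 KO replicate 1) and -4.71 ± 1.25 in GNA11 Q209L (adjusted p = 0.0337). The latter was lost without GNA11 Q209L replicate 2 (-3.90, adjusted p = 0.226) or BRAF V600E Bap1 KO replicate 2 (adjusted p = 0.0505), and in a fit of these 2 genotypes alone (0.110). Alox5, the lipoxygenase that starts leukotriene synthesis, was at 9.78, 2.96, 10.1 and 45.1 CPM in BRAF V600E Bap1 KO and at 0.628 CPM or less in all 7 libraries with GNA11 Q209L. It was lower in GNA11 Q209L Bap1 KO (-6.21 ± 0.94, adjusted p = 0.00129, and -5.06 without BRAF V600E Bap1 KO replicate 4). It was also lower in GNA11 Q209L (-4.80 ± 1.30, adjusted p = 0.0357), a call lost without GNA11 Q209L replicate 1 or 2 (adjusted p = 0.129 and 0.245) or in a fit of these 2 genotypes alone (0.0894), and at -3.66 without BRAF V600E Bap1 KO replicate 4. Ltc4s, which makes leukotriene C4, fell by 3.95 on the log2 scale in GNA11 Q209L Bap1 KO (SE 0.76, adjusted p = 0.00379). Hpgds, the prostaglandin D synthase, did not pass in either comparison with BRAF V600E Bap1 KO (log2 1.02 and 1.82, adjusted p = 0.242 and 0.134).

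Of the receptor and signalling genes, Il1rl1, the receptor for interleukin 33, showed the widest spread. It stood at 2325, 2374, 12.5 and 8.48 CPM in the BRAF V600E Bap1 KO libraries. It stood at 1.99 and 11.95 CPM in GNA11 Q209L and at 6.68, 2.05, 1.08, 0.524 and 0.415 CPM in GNA11 Q209L Bap1 KO. Replicates 1 and 2 with BRAF V600E stood far above replicates 3 and 4, a split not seen in Cpa3, Cma1, Mcpt4 and Tpsb2. It was lower in GNA11 Q209L Bap1 KO (-9.12 ± 1.91, adjusted p = 0.00526), or -10.2 without GNA11 Q209L Bap1 KO replicate 1 and -8.53 without BRAF V600E Bap1 KO replicate 2. Against GNA11 Q209L it did not pass (adjusted p = 0.0808). It passed without BRAF V600E Bap1 KO replicate 4 (adjusted p = 0.0495) and with DESeq2 (adjusted p = 0.000101).

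Ptger3, a prostaglandin E receptor, had the reverse pattern among the BRAF V600E Bap1 KO libraries, at 1.00, 1.84, 12.9 and 11.9 CPM, and was lower in GNA11 Q209L Bap1 KO (-4.18 ± 0.92, adjusted p = 0.00657). Adora3, an adenosine receptor of mast cells, was lower there too (-4.11 ± 0.93, and -4.88 without GNA11 Q209L Bap1 KO replicate 3). Fcer1g, the gamma chain that many myeloid cells share, stood at 97.5, 181, 27.5 and 54.3 CPM in the BRAF V600E Bap1 KO libraries. It stood at 391 and 67.9 CPM in GNA11 Q209L and at 61.9, 82.0, 114, 19.995 and 13.9 CPM in GNA11 Q209L Bap1 KO. The groups overlapped, and it did not pass in any comparison (adjusted p = 0.509 in GNA11 Q209L Bap1 KO and 0.302 in GNA11 Q209L against BRAF V600E Bap1 KO, 0.420 between the GNA11 genotypes). The alpha and beta chains named above had almost no counts in the libraries with GNA11 Q209L.

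Of the growth receptor and transcription factor genes, Gata2, a factor of mast cell identity, stood at 41.3, 59.6, 10.3 and 7.91 CPM in the BRAF V600E Bap1 KO libraries. It stood at 6.96 and 2.94 CPM in GNA11 Q209L and at 3.04, 3.76, 7.14, 1.9995 and 2.35 CPM in GNA11 Q209L Bap1 KO. Replicates 1 and 2 with BRAF V600E were the highest, and the lowest of that genotype was above all others. Gata2 was lower in GNA11 Q209L Bap1 KO (-3.03 ± 0.66, adjusted p = 0.00628). Against GNA11 Q209L it did not pass (-2.58 ± 0.93, adjusted p = 0.0774). It passed without BRAF V600E Bap1 KO replicate 4 (adjusted p = 0.0472) and with DESeq2 (adjusted p = 0.00951).

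Mitf and Kit, which melanocytes also express, were the 2 genes of the list that passed as higher in tumours with GNA11 Q209L. Mitf stood at 332 and 345 CPM in GNA11 Q209L, at 639, 359, 853, 1199.8 and 546 CPM in GNA11 Q209L Bap1 KO and at 31.2, 34.0, 24.9 and 44.2 CPM in BRAF V600E Bap1 KO. It was higher in GNA11 Q209L Bap1 KO (4.42 ± 0.40, adjusted p = 0.000142) and in GNA11 Q209L (3.33 ± 0.43, adjusted p = 0.00201) than in BRAF V600E Bap1 KO. Kit stood at 192 and 180 CPM in GNA11 Q209L and at 17.0, 7.97, 12.8 and 28.1 CPM in BRAF V600E Bap1 KO. In GNA11 Q209L Bap1 KO it ran from 7.09 to 276 CPM and so overlapped BRAF V600E Bap1 KO. Kit was higher in GNA11 Q209L Bap1 KO (2.48 ± 0.84, adjusted p = 0.0360) and in GNA11 Q209L (3.50 ± 0.98, adjusted p = 0.0389). The first call was lost without GNA11 Q209L Bap1 KO replicate 1 or 3 or BRAF V600E Bap1 KO replicate 1, 2 or 3 (adjusted p from 0.0521 to 0.0854), with a log2 of 1.58 without GNA11 Q209L Bap1 KO replicate 3. The call in GNA11 Q209L was lost without its replicate 1 or 2, GNA11 Q209L Bap1 KO replicate 1 or BRAF V600E Bap1 KO replicate 1, 2 or 3 (adjusted p from 0.0523 to 0.180), and with total counts for scaling (0.0501).

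**Figure D3:**
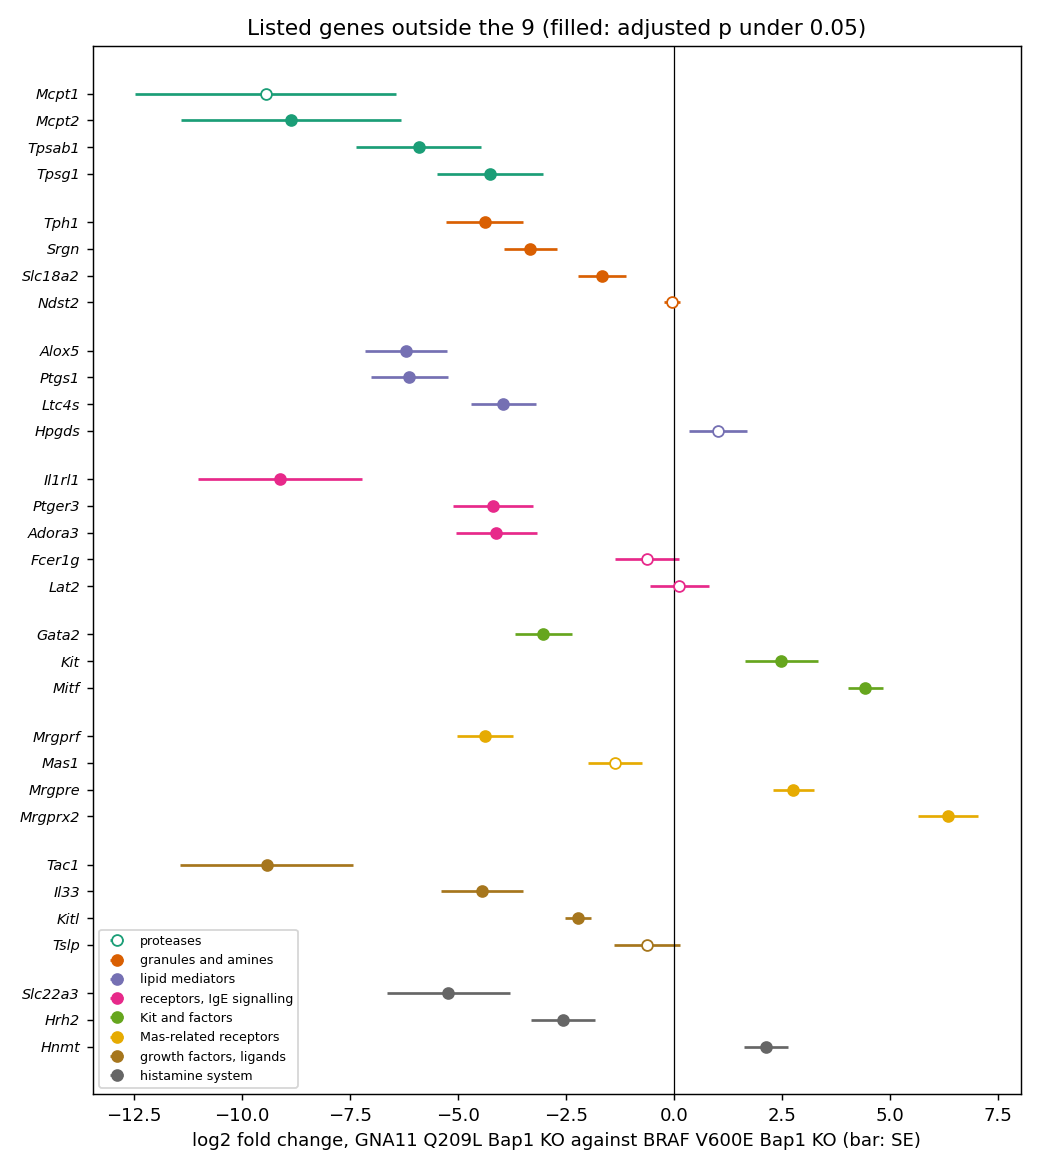
Log2 fold change of GNA11 Q209L Bap1 KO against BRAF V600E Bap1 KO (horizontal, bars are SE) for the tested genes of the mast cell, Mas-related receptor, ligand and histamine lists outside the 9, except 1 ligand gene that is not drawn; filled points have an adjusted p under 0.05. Most mast cell genes lie left of 0, while Kit, Mitf, Mrgpre, Mrgprx2 and Hnmt lie to the right and pass. Tpsab1, Tpsg1, Mcpt2, Tph1, Adora3, Tac1 and Slc22a3 passed the low-count filter only through BRAF V600E Bap1 KO. Their direction was fixed, so nothing is read from their filled points. Over all genes tested 24.7% were lower and 16.5% higher.

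Among the Mas-related receptors outside the 9, the list of 19 has 7 in the table and 4 tested. Mrgprx2 (ENSMUSG00000074109), the next gene after Mrgprb1, followed Mrgprb1 and not Mrgprb2. It stood at 29.2 and 132 CPM in GNA11 Q209L and at 262, 90.7, 301, 208.8 and 264 CPM in GNA11 Q209L Bap1 KO. In the BRAF V600E Bap1 KO libraries it stood at 3.85, 0.818, 3.97 and 2.45 CPM, below every library with GNA11 Q209L. It was higher in GNA11 Q209L Bap1 KO (log2 6.34 ± 0.70, adjusted p = 0.000297), with a range from 5.83 to 6.59 over the alternatives run. In GNA11 Q209L it was higher by 4.86 ± 0.70 (adjusted p = 0.00358), or 5.57 and 3.39 without GNA11 Q209L replicate 1 and 2. Between the GNA11 genotypes it did not pass (1.48 ± 0.72, adjusted p = 0.478).

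The count of Mrgprx2 divided by that of Mrgprb1 in the same library was 0.172 and 0.171 in GNA11 Q209L. It ran from 0.169 to 0.363 in GNA11 Q209L Bap1 KO and was 0.263, 0.300, 0.667 and 0.438 in BRAF V600E Bap1 KO, where counts of Mrgprx2 were 343, 24, 114 and 56. The pair therefore kept a ratio within a few-fold while each gene changed by more than an order of magnitude. Whether reads passed between the copies was not tested on reads.

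**Figure D4:**
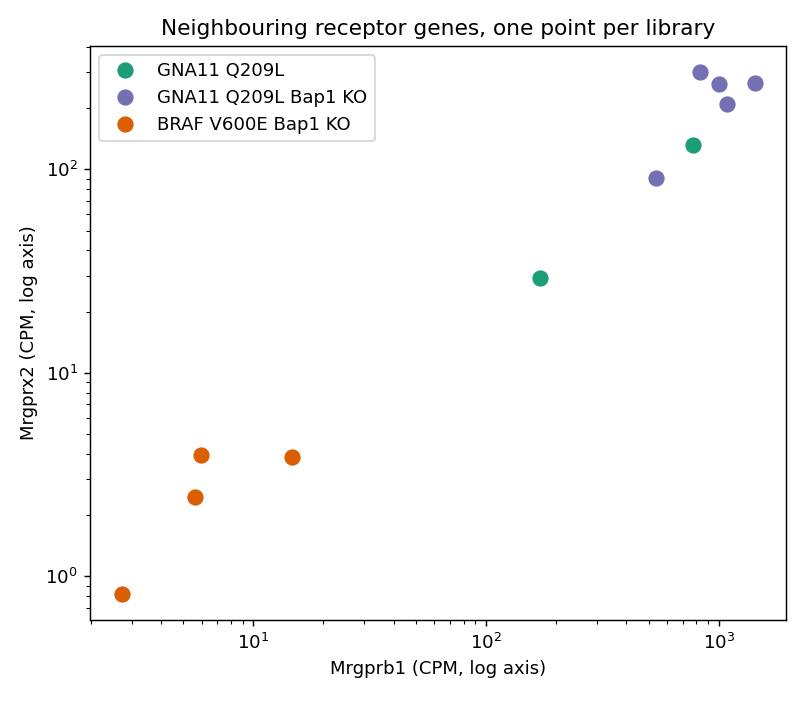
CPM of Mrgprx2 (vertical) against CPM of Mrgprb1 (horizontal), both log axes, 1 point per library, coloured by genotype. The 7 libraries with GNA11 Q209L lie at the upper right, from 170.1 CPM of Mrgprb1 and 29.2 of Mrgprx2, and the 4 with BRAF V600E at the lower left.

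Mrgpre, another receptor of the family, was higher in GNA11 Q209L Bap1 KO (2.76 ± 0.48, adjusted p = 0.00242) and in GNA11 Q209L (2.59 ± 0.54, adjusted p = 0.0162) than in BRAF V600E Bap1 KO. The latter was 1.55 and lost its call without GNA11 Q209L replicate 1 (adjusted p = 0.126), and was 3.19 without replicate 2. It was also lost in a fit of these 2 genotypes alone (adjusted p = 0.0768) and without the libraries that read NA on the repeated Bap1 line (0.0624). Mrgprf, a further member, went the other way, at 32.2, 11.2, 81.0 and 44.6 CPM in BRAF V600E Bap1 KO and at 6.24 CPM or less elsewhere. It was lower in GNA11 Q209L Bap1 KO (-4.38 ± 0.65, adjusted p = 0.00120). In GNA11 Q209L (-2.95 ± 0.89, adjusted p = 0.0478) the call was lost on leaving out any library but GNA11 Q209L Bap1 KO replicate 1 and BRAF V600E Bap1 KO replicate 2 (adjusted p from 0.0510 to 0.255), in a fit of these 2 genotypes alone (0.0978) and without the filter (0.0519). Mrgprb3, next to Mrgprb2, was below the filter, with 1 count in all libraries with GNA11 Q209L and with 2.36 CPM in replicate 4 of BRAF V600E Bap1 KO.

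Of 8 mast cell growth factors and activating ligands, 6 are in the table and 5 were tested. In GNA11 Q209L Bap1 KO against BRAF V600E Bap1 KO 4 fell (1 of them Tac1), 0 rose and Tslp did not pass, where 24.7% of all genes tested fell, and in GNA11 Q209L against BRAF V600E Bap1 KO 0 passed with edgeR (2 at an unadjusted p under 0.05, 2 with DESeq2). Kitl, the Kit ligand, stood at 84.8, 59.2, 56.0 and 48.0 CPM in the BRAF V600E Bap1 KO libraries. It stood at 14.7, 8.96, 10.2, 15.6 and 17.0 CPM in GNA11 Q209L Bap1 KO, and at 55.2 and 25.1 CPM in GNA11 Q209L. Only the GNA11 Q209L Bap1 KO libraries stood apart from both other groups. Kitl was lower there than in BRAF V600E Bap1 KO (-2.22 ± 0.31, adjusted p = 0.000842). Against GNA11 Q209L it did not pass with edgeR (-1.59 ± 0.35, adjusted p = 0.164), while DESeq2 gave an adjusted p of 0.00692. It was the 1 ligand gene that DESeq2 called between the GNA11 genotypes, where edgeR called 0 of 5 and 2 were at an unadjusted p under 0.05.

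Il33, the alarmin that Il1rl1 binds, stood at 162, 12.2, 90.0 and 32.0 CPM in BRAF V600E Bap1 KO and at 34.6 and 6.198 CPM in GNA11 Q209L. All GNA11 Q209L Bap1 KO libraries held 9.12 CPM or less, and the gene was lower there (-4.45 ± 0.95, adjusted p = 0.00577, with -5.24 without GNA11 Q209L Bap1 KO replicate 1 and -3.73 without BRAF V600E Bap1 KO replicate 1). BRAF V600E Bap1 KO replicate 2, with as much Il1rl1 as replicate 1, had the least Il33 of its group. Tac1, the precursor of substance P, stood at 58.1, 8.96, 0.104 and 0.219 CPM in BRAF V600E Bap1 KO, with 3 counts in all 7 libraries with GNA11 Q209L. Tac1 passed the filter only through replicates 1 and 2 of BRAF V600E Bap1 KO, and was not tested without either, so no p-value is given.

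Of 7 genes of histamine receptors, breakdown and uptake, 4 are in the table and 3 were tested. In GNA11 Q209L Bap1 KO against BRAF V600E Bap1 KO 1 rose and 2 fell, against 16.5% and 24.7% of all genes tested. Hnmt, which methylates histamine, stood at 42.3 and 16.1 CPM in GNA11 Q209L and at 11.9, 10.8, 11.04, 23.5 and 25.2 CPM in GNA11 Q209L Bap1 KO. In the BRAF V600E Bap1 KO libraries it stood at 2.47, 2.73, 2.33 and 7.65 CPM, below all of these. It was higher in GNA11 Q209L Bap1 KO (2.12 ± 0.52, adjusted p = 0.0101) and in GNA11 Q209L (2.95 ± 0.61, adjusted p = 0.0148). The latter was lost without GNA11 Q209L replicate 1 (2.09, adjusted p = 0.0936) and in a fit of these 2 genotypes alone (0.0618), and was 3.53 without BRAF V600E Bap1 KO replicate 4.

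Hrh2, a histamine receptor, was lower in GNA11 Q209L Bap1 KO (-2.57 ± 0.75, adjusted p = 0.0203). That call was lost without BRAF V600E Bap1 KO replicate 2 (-1.64, adjusted p = 0.0730) or GNA11 Q209L Bap1 KO replicate 5 (adjusted p = 0.0560). Slc22a3, a transporter that takes up histamine, had a log2 fold change of -5.22 ± 1.42, or -3.20 without BRAF V600E Bap1 KO replicate 4, which held 5.81 CPM of it. It passed the filter only through BRAF V600E Bap1 KO. Hdc and the enzyme that breaks histamine down thus had means that ran in opposite directions between these genotypes.

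Levels of markers of other cells were also compared, and their part in these results was not tested. Over all genes tested, 16.5% were higher and 24.7% lower with GNA11 Q209L in the comparison of both Bap1 KO genotypes, the background for the counts that follow. The 8 melanocyte markers summed to 65735 to 67966 CPM in GNA11 Q209L, 75958 to 99020 in GNA11 Q209L Bap1 KO and 17.8 to 145 in BRAF V600E Bap1 KO, and 8 of 8 were higher in both comparisons with BRAF V600E Bap1 KO. The 7 fibroblast markers summed to 2835 to 11211 CPM in GNA11 Q209L, 286 to 2191 in GNA11 Q209L Bap1 KO and 3104 to 18199 in BRAF V600E Bap1 KO. Of these 7 were lower in GNA11 Q209L Bap1 KO and 0 in GNA11 Q209L with edgeR, where 1 was at an unadjusted p under 0.05 and 1 passed with DESeq2. The fibroblast sum of GNA11 Q209L replicate 1 (11211 CPM) lay within the range of the tumours with BRAF V600E, and that of replicate 2 (2835 CPM) lay below it.

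The 8 macrophage markers summed to 740 to 6458 CPM in GNA11 Q209L, 203 to 1042 in GNA11 Q209L Bap1 KO and 687 to 2611 in BRAF V600E Bap1 KO, with 3 of 8 lower in GNA11 Q209L Bap1 KO, a share not far from the background. The 7 T and NK cell markers summed to 2.23 to 59.1, 5.06 to 16.3 and 16.1 to 104 CPM in the same order, with 4 lower. Of 6 skeletal muscle markers 5 were lower in GNA11 Q209L Bap1 KO, at a sum of 8.09 to 178 CPM against 11.004 to 5306, as were 4 of 5 adipocyte markers (3 of which passed the filter only through BRAF V600E Bap1 KO), at 24.5 to 42.3 against 1.28 to 333 CPM. With DESeq2 1 of the 6 muscle markers and 4 of the 5 adipocyte markers passed. The groups overlapped for every marker of both lists. The 6 endothelial markers summed to 445 to 850 CPM in GNA11 Q209L and 277 to 381 CPM in GNA11 Q209L Bap1 KO, above the 98.5 to 249 CPM of all BRAF V600E Bap1 KO libraries, with 1 higher and 0 lower in each comparison with that genotype.

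Basophils share the IgE receptor with mast cells. Of 4 basophil markers 3 were tested, and Mcpt8 and Cd200r3 passed the filter only through BRAF V600E Bap1 KO, so they are given without a p-value. Il3ra, a cytokine receptor chain that other cells also express, was higher (adjusted p = 0.00119). Cd200r3, which mast cells share, stood at 2.44, 0.988, 1.01 and 1.09 CPM in BRAF V600E Bap1 KO, and Prss34, the basophil protease, at 0.341 CPM or less.

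The genes whose levels were most like that of Mrgprb1 across the 11 libraries were Mrgprx2 (Pearson's r of log2 CPM 0.988), Erlin2 (0.985), Met (0.982), Cav1, Fadd, Cds2, Chsy3 and Vps39, from 13190 genes ranked. These are descriptions without a test. The libraries differ in depth and fall into clusters by genotype, which weighs on any such ranking. Mitf was at rank 72 (0.959) and the pigment gene Pmel at 187 (0.939). With Spearman's rho 1 of the 8 was again among the first 8, which was Cav1 and not Mrgprx2. With total counts for scaling 5 were, Mrgprx2 among them. Over the 7 libraries with GNA11 Q209L alone the first 5 were Dlg5 (0.989), Spata5, Cep68, Prph and Dusp8, of which 0 were kept with either other setting. There Mrgprx2 was at rank 20 (0.944), Mitf at 1402 (0.599) and Pmel at 6095 (0.0593) by Pearson's r with TMM scaling. Their ranks there under the other settings were not recorded, so the likeness to Mrgprx2 within one oncogene rests on this setting alone.

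The genes most like Cpa3 over the 11 libraries were Mcpt4 (0.991), Ptk7 (0.971), Cma1 (0.970), Fbn2, Ccdc109a, Ano1, Pthlh and Pf4, with Fcer1a at rank 47 and Tpsb2 at 62. Of these 8, 1 was kept with Spearman's rho and 7 with total counts. Pmel stood near the end of the ranking (-0.97). Over the 7 libraries with GNA11 Q209L the first 5 were Rpl35, Rpl39, Dkk2, Scn8a and Cox17, but Cpa3 had 2 to 20 counts there, and no likeness is read from so few.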

How the data were processed

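RNA sequencing libraries of 11 skin tumours were compared by labelled genotype. The authors deposited 1 table of estimated counts per gene, not normalised, and the gene values are whole numbers. STAR and mm9 are named per the submitters' processing notes, with the counting program, versions, annotation, strand and treatment of multiply matched reads all not given in the sources used here. Of 18769 lines, 7 repeated lines and 6 transgene sequences were left out, which left 18756 mouse genes. Reads on overlapping or antisense genes cannot be told apart.

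Genotypes were compared with the quasi-likelihood test of edgeR 4.0.16 in R 4.3.3, after TMM scaling. The default filter on low counts kept 17350 genes. GNA11 Q209L has only 2 libraries, so 1 fit of genotype alone to all 11 libraries gave a common estimate of the spread. Two-sided p-values were adjusted after Benjamini and Hochberg across the genes tested, at a threshold of 0.05. The SE of a log2 fold change comes from its F statistic. CPM are TMM-scaled. A fold against a group with no count is a lower bound at 3 counts over the group, and a ratio to 1 to 3 counts carries an exact 95% Poisson interval. A count of 3 is 0.0370 to 0.164 CPM of the total of a library. Likeness is Pearson's r of log2 CPM (prior count 2). Alternatives were RLE factors, total counts, no filter, the 2 genotypes alone, summed libraries that share an identifier, each library left out, and DESeq2 1.42.0. The procedure was tested on simulated data. Promoters are from RefSeq (GRCm38.p6) and transcripts from GENCODE release 21 of the mouse; no gene coordinate was taken between builds.

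The 9 genes and the lists were chosen with earlier results of these data known. Genes named beyond the 9 follow a rule: 9 mast cell genes whatever their values and up to 10 more past the threshold, genes of the receptor, ligand and histamine lists past the threshold (up to 5 a list, with Kitl and Mrgprf in any case), and the 8 or 5 genes most alike. Genes given beyond this rule (Mcpt1, Mcpt8, S100a8, Mpo, Ndst2, Mrgprb3, Tslp and the marker genes) were named after their values were seen. The values of 1 gene of the ligand list are not reported here, although the counts of that list include it.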

Additional observations from a re-analysis of the deposited data

Results flagged for a closer look

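In each group of 4 or 5 libraries it was asked whether 1 library stood apart from the others by Dixon's 95% criterion. Of 72 such groups, over the 9 genes and the genes named by rule from the mast cell, receptor, ligand and histamine lists, 15 had 1 library apart. Some of these genes were named for passing the threshold, and the rest of those lists was not looked at. Each stood at the high end. For normally distributed values chance gives about 1 in 20. The criterion was applied to CPM without a log, and the groups of different genes share libraries. The 15 of 72 therefore cannot be read as an excess over chance. The causes were not tested.

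In BRAF V600E Bap1 KO, replicate 1 stood apart for the chymase gene Cma1 (64.4 CPM), the tryptase gene Tpsb2 (89.3 CPM), Mcpt2 (6.07 CPM), Adora3 (4.05 CPM) and Tac1 (58.1 CPM). Without it the means of the group were 17.0 CPM for Cma1, 17.7 for Tpsb2, 0.296 for Mcpt2, 1.68 for Adora3 and 3.10 for Tac1. Replicate 2 stood apart for Ctsg (4.50 CPM) and Hrh2 (3.95 CPM). Replicate 4 stood apart for Alox5 (45.1 CPM), Hnmt (7.65 CPM) and Slc22a3 (5.81 CPM), whose mean was 0.438 CPM without it.

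In GNA11 Q209L Bap1 KO, replicate 1 stood apart for Ms4a2 (0.0543 CPM, a single count) and Il1rl1 (6.68 CPM). Replicate 3 stood apart for Hdc (6.92 CPM, the group mean being 0.845 CPM without it) and Kit (276 CPM, mean 46.0 CPM without it). Replicate 4 stood apart for Cpa3 (0.952 CPM).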

How the results depend on the processing

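Of the 17350 genes, 7146 were called in GNA11 Q209L Bap1 KO against BRAF V600E Bap1 KO, 5448 to 7176 with 1 library left out. Without the libraries that read NA on the repeated Bap1 line, an alternative chosen after seeing the data, 3571 were, and the calls of Kit, Slc18a2 and Hrh2 were lost (adjusted p = 0.127, 0.0703 and 0.161). Of the other mast cell genes 15 were called there, and 11 to 17 under the alternatives.

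In GNA11 Q209L against BRAF V600E Bap1 KO 2637 genes were called, 265 to 2867 with 1 library left out (265 without GNA11 Q209L replicate 2, 1078 without its replicate 1, 1737 without BRAF V600E Bap1 KO replicate 2), 417 with the 2 genotypes alone, 838 without the NA libraries and 5458 with DESeq2. Of the other mast cell genes 4 were called, 1 to 6 with 1 library left out (1 without GNA11 Q209L replicate 2, 2 without its replicate 1 or BRAF V600E Bap1 KO replicate 2), 2 with the genotypes alone, 2 without the NA libraries and 9 with DESeq2. Of the 9 genes 8 were, 2 with the genotypes alone, 5 without GNA11 Q209L replicate 1 and 1 without replicate 2.

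Between the GNA11 genotypes 5 genes were called with edgeR (1970 at an unadjusted p under 0.05) and 442 with DESeq2. With edgeR 3 were called with RLE factors, 3 without the filter, 64 with the genotypes alone and 0 with libraries that share an identifier summed. With 1 library left out the count ran from 0 to 13 (13 without BRAF V600E Bap1 KO replicate 1, 0 without GNA11 Q209L replicate 1 or 2 or GNA11 Q209L Bap1 KO replicate 1, 2 or 3, 1 without its replicate 4 or 5).

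Scaling by total counts moved the median of all genes by -0.38 and -0.42 (log2) in the comparisons with BRAF V600E Bap1 KO, and the split of calls from 2865 higher and 4281 lower to 1746 and 5725, and from 1609 and 1028 to 863 and 1602. Of 216 log2 fold changes of the named genes under RLE factors or total counts, 0 had the other sign. No paired analysis was possible because the labels carry no replicate numbers that groups share. Few counts in tumours with GNA11 Q209L limit how well the folds of mast cell genes are known.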

Other observations

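Markers of sensory neurons, the usual site of Mas-related receptors, and of other cells not yet described are given here as levels. In GNA11 Q209L Bap1 KO against BRAF V600E Bap1 KO 24.7% of all genes tested were lower, and the counts of Schwann cell (1 of 5), neutrophil (0 of 5) and keratinocyte markers (2 of 7) are near or below that share. The 4 sensory neuron markers in the table summed to 0.733 to 2.72 CPM in GNA11 Q209L. They summed to 1.99 to 7.99 CPM with GNA11 Q209L Bap1 KO and to 6.38 to 39.1 CPM with BRAF V600E. In the comparison of both Bap1 KO genotypes 1 was higher and 2 were lower with GNA11 Q209L. Of the latter 2, 1 (Calca) passed the low-count filter only through BRAF V600E Bap1 KO, so its direction was fixed. The 5 Schwann cell markers summed to 98.7 to 151, 25.3 to 128 and 19.4 to 933 CPM in the same order, with 1 lower in that comparison. The 3 eosinophil markers in the table summed to 0.0892 to 1.204 CPM, 0 to 0.163 CPM and 1.38 to 3.59 CPM, and both markers tested passed the low-count filter only through BRAF V600E Bap1 KO. The 7 keratinocyte markers summed to 0.981 to 5.68 CPM, 0.812 to 1550.1 CPM and 128 to 12599.8 CPM, with 2 lower in GNA11 Q209L Bap1 KO. Of these 2 keratinocyte markers, 1 (Trp63) passed the filter only through BRAF V600E Bap1 KO. In GNA11 Q209L against BRAF V600E Bap1 KO 1 of the 7 was lower with edgeR, against 5.93% of all genes tested. There 5 of the 7 were lower at an unadjusted p under 0.05, as were 6331 of all 17350 genes in either direction. DESeq2 called 7 of the 7 lower, and more of all genes than edgeR did. Of the 7, 3 passed the filter only through BRAF V600E Bap1 KO. The 7 neutrophil markers summed to 5.93 to 83.2 CPM, 1.87 to 35.3 CPM and 18.5 to 312 CPM. Of 5 tested, 0 passed with edgeR in GNA11 Q209L Bap1 KO, with 2 at an unadjusted p under 0.05 and 2 with DESeq2. The 5 B and plasma cell markers summed to 0.491 to 8.06 CPM, 1.19 to 3.62 CPM and 3.28 to 213 CPM, and both markers tested were lower in GNA11 Q209L Bap1 KO.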
